A study of Mus musculus with 2 samples.

Results

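The Pax genes are 9 transcription factor genes of the mouse that share the paired domain, a DNA-binding region after which the family is named. They fall into the subfamilies Pax1 and Pax9, Pax2, Pax5 and Pax8, Pax3 and Pax7, and Pax4 and Pax6. All 9 were found by symbol in the GENCODE vM1 annotation, among 22359 protein-coding genes. The study profiled DNA methylation in mouse embryonic fibroblasts (MEFs), connective tissue cells grown from embryos, to ask how a loss of methylation bears on Polycomb repression. It held 1 library of Dnmt1+/+ MEFs and 1 library of Dnmt1-/- MEFs. The Dnmt1-/- cells were homozygous for a hypomorphic allele of Dnmt1, the gene of the methyltransferase that copies CpG methylation onto the new DNA strand after replication. Cells of both genotypes were also homozygous null for trp53, and the sources used here do not state whether either line was a single clone.

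Pax proteins direct the formation of organs and cell lineages in the embryo, and most Pax genes are silent in cells outside those lineages. Most of their starts lie in long CpG islands, stretches rich in the CG dinucleotide that are mostly unmethylated, and in many tissues such islands carry the H3K27me3 mark of the Polycomb repressive complex PRC2. In gene bodies and between genes, CpGs of mammalian DNA are mostly methylated.

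Methylation was read by reduced-representation bisulfite sequencing (RRBS), in which DNA is cut with restriction enzymes, fragments are selected by size, and bisulfite treatment turns cytosines without a methyl group into uracil, which sequencing reads as thymine. A locus was taken as the gene body plus 5 kb upstream, on mm9 (NCBIM37). It was divided into promoter islands, which are CpG islands within 1 kb of an annotated coding start, the rest of the body, and the rest of the flank. The 9 loci held 1851 of the 1790826 CpGs in the table, and 1177 of these lay outside the motifs CCGG and TCGA. All values below are means over such CpGs unless stated otherwise, because CpGs inside the motifs, at which the fragments end, gave a different level. In Pax promoter islands the 154 motif CpGs averaged 54.6% in Dnmt1+/+ and 54.3% in Dnmt1-/- MEFs, against 10.8% and 7.34% at the 444 other CpGs. The table held 74636195 calls for Dnmt1+/+ and 78401157 for Dnmt1-/-, with median depths of 29 and 30, and its 996064 CpGs outside the motifs averaged 45.0% and 15.1%. No RNA was in the table, so the cell type could not be checked by expression. Of 6 fibroblast marker genes, 4 had at least 5 CpGs in promoter islands, and these averaged 2.07% to 6.14% in Dnmt1+/+ and 0.464% to 6.82% in Dnmt1-/-. The medians of all promoters were 2.33% and 1.19%, and Col1a2 at 6.14% and 6.82% was the highest of the 4, so these levels do not tell fibroblasts from other cells. Among the rest, the 4 promoter CpGs of Thy1 averaged 14.5% and 32.3%, with 2 called higher.

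Sequences of 4 stretches show the range of behaviour in the family, from islands that were low in both libraries to islands that were nearly free of methylation in Dnmt1-/- only and islands that were higher in Dnmt1-/- MEFs. They are printed 5′ to 3′ on the strand of the gene, from the NCBIM37 genome, and CG in capitals marks the CpGs outside CCGG and TCGA that were measured. The first is in the largest Pax2 promoter island (chr19:44830067-44830366, plus strand), upstream of the annotated start. The second is from an island over a coding exon and intron of Pax5 (chr4:44692211-44692495, minus strand). The last pair are from intronic islands of Pax9 (chr12:57801328-57801627, plus strand) and Pax6 (chr2:105521559-105521858, plus strand).
Pax2 promoter island: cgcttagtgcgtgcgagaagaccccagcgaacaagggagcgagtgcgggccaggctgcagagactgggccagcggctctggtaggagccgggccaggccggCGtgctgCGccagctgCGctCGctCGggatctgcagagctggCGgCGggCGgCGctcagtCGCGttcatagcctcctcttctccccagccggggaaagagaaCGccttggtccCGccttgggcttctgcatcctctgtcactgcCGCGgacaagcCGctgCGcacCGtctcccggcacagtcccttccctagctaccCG
Pax5 exon and intron: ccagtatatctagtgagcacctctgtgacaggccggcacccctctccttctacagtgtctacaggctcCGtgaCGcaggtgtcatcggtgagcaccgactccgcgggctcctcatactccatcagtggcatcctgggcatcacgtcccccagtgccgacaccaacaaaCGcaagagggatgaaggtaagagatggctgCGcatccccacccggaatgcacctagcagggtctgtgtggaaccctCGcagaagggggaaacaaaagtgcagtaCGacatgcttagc
Pax9 intron: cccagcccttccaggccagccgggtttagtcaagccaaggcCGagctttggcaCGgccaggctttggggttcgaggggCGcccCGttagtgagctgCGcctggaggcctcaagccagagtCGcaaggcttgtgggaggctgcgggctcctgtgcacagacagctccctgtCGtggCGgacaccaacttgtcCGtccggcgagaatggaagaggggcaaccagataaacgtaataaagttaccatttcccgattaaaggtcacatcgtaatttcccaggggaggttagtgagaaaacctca
Pax6 intron: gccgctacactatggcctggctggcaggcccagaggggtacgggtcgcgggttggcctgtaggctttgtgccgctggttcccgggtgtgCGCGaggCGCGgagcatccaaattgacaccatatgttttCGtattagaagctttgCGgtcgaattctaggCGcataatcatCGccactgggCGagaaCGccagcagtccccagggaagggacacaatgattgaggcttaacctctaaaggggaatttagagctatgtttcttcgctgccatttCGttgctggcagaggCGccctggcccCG

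In the Pax2 stretch the 19 measured CpGs had at most 9.38% methylation in Dnmt1+/+ and at most 2.35% in Dnmt1-/- MEFs. In the Pax5 stretch all 6 CpGs were between 72.5% and 100% in Dnmt1+/+ and between 0% and 5.26% in Dnmt1-/-. In the Pax9 stretch 7 of the 9 CpGs were higher in Dnmt1-/-. Neighbouring CpGs often had equal depth and can share reads, so values within a stretch are not independent.

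Averaged over all CpGs of the family, promoter islands were low in both libraries, whereas bodies and flanks were lower in Dnmt1-/- than in Dnmt1+/+ MEFs. The 444 promoter island CpGs averaged 10.8% and 7.34%, which is -3.50 percentage points from the first library to the second. The 643 CpGs in the rest of the bodies averaged 33.0% and 8.28% (-24.7 points). The 90 CpGs in the rest of the flanks averaged 27.0% and 7.60% (-19.4 points, and -7.23 with a flank of 2 kb). The genes did not contribute evenly: Pax2, Pax5 and Pax7 held 126, 222 and 155 of the body CpGs, and the bodies of Pax1, Pax9 and Pax6 and the flanks of Pax9, Pax2 and Pax6 differed by under 10 points. On pooled calls, which weight CpGs by depth, the differences were -3.44 points in promoter islands (95% Newcombe interval -3.88 to -2.99), -18.1 in bodies (-18.6 to -17.5) and -20.2 in flanks (-21.8 to -18.5). Here and below, intervals cover counting error only. With 1 library per genotype, the spread between cultures is unknown and no p-value is given for a region.

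By Fisher's exact test on the calls of each CpG, with Benjamini-Hochberg adjustment over the whole table and a threshold of 0.05, 319 of the 1177 CpGs were lower in Dnmt1-/-, 27.1% against 44.2% of all CpGs outside the motifs. In the other direction 14 CpGs were higher, 1.19% against 0.635%. This test compares the 2 libraries, not the genotypes. When the 674 motif CpGs were added, 472 of 1851 CpGs were called lower (background 43.7%) and 23 higher (background 0.462%). Of the CpGs outside the motifs called lower, 33 lay in promoter islands, 258 in the rest of the bodies and 28 in flanks. Of those called higher, 4 lay in promoter islands and 10 in bodies.

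Pax bodies were less methylated than most gene bodies already in Dnmt1+/+ MEFs. The median over the 8 Pax bodies with at least 5 CpGs was 34.1% in Dnmt1+/+ and 17.3% in Dnmt1-/-, against 86.2% and 28.9% over 11656 genes. A body difference of at least 10 points downward was found in 5 of the 8, against 96.9% of all bodies, and in none of the 8 upward, against 0.343%. For flanks the Pax medians were 15.5% and 3.25% over 6 genes, against 65.7% and 12.9% over 3185 genes. Of the 6 flanks, 3 were lower by at least 10 points (background 74.4%), and 0 were higher by as much (background 0.911%). For promoter islands the Pax medians of 8.90% and 3.35% lay above those of all 13046 genes, 2.33% and 1.19%. None of the 8 measured Pax promoters differed by 10 points in either direction, where 11.9% of all promoters were lower and 0.843% higher by that much. The Pax8 promoter reached -26.3 points when only its 5′ most start was used, and the Pax1 promoter -10.1 points on pooled calls.

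**Figure D1:**
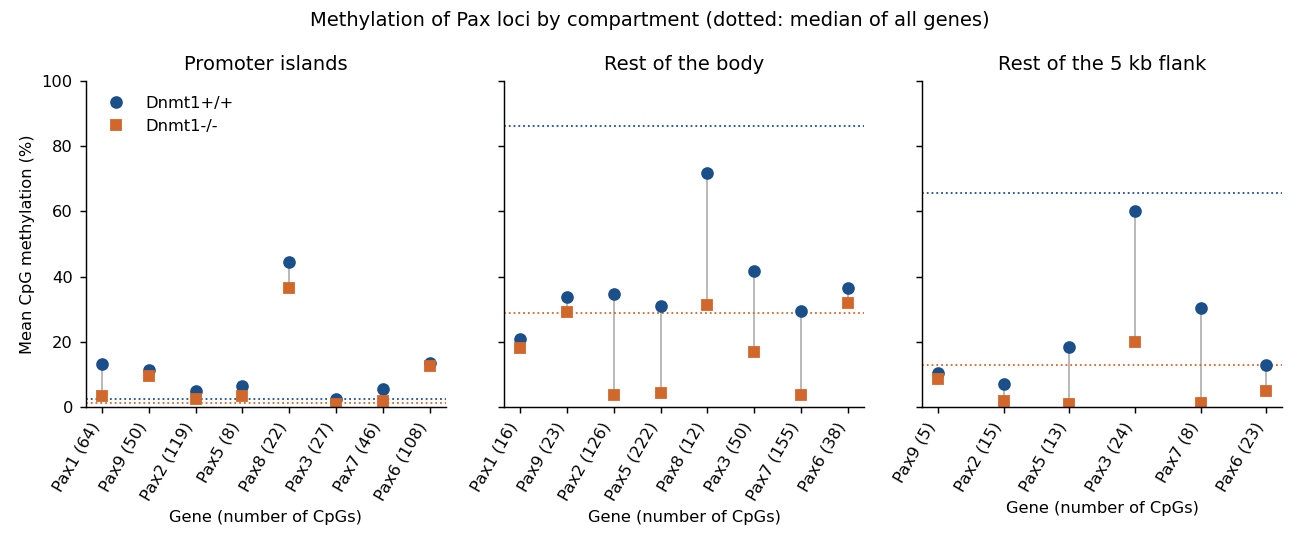
Mean CpG methylation in percent (y axis) of each Pax gene with at least 5 CpGs (x axis, number of CpGs in brackets) in Dnmt1+/+ (circles) and Dnmt1-/- (squares) MEFs, in promoter islands, the rest of the body and the rest of the flank. Grey lines join the 1 library of each genotype, and dotted lines mark the medians of all genes. Bodies of Pax2, Pax5 and Pax7 were below 5% in Dnmt1-/-, while the plotted means of Pax1, Pax9 and Pax6 bodies were within 5 points of Dnmt1+/+ (Pax1 differed by -7.99 points on pooled calls).

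Pax1 (ENSMUSG00000037034.8, chr2:147187661-147219031, plus strand) and Pax9 (ENSMUSG00000001497.11, chr12:57792754-57813809, plus strand) act in the sclerotome, from which vertebrae form, and Pax9 also in teeth and palate. Pax1 had the largest promoter difference of the family, 13.1% in Dnmt1+/+ and 3.47% in Dnmt1-/- over 64 CpGs, 12 of them called lower. That is -9.62 points, just inside the limit of 10. Of its promoter islands, the first at the start averaged 16.0% and 2.93% over 8 CpGs, and one 4.11 kb downstream averaged 14.3% and 3.42% over 25 CpGs. The largest fall of a Pax1 CpG, in a coding exon at position 147191479, was from 58.5% of 53 calls to 10.7% of 28 calls (adjusted p = 0.000160, Fisher's exact test). The rest of the Pax1 body averaged 20.8% and 18% over 16 CpGs, 5 of them called lower. That difference of -2.80 points grew to -7.99 on pooled calls, -8.05 with the 5′ most start and -12.1 over the 5 CpGs with at least 20 calls.

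The Pax9 promoter averaged 11.3% and 9.35% over 50 CpGs, a direction that turned to +3.69 points when only the 5′ most start was used. The island across the start averaged 9.25% and 11.4% over 13 CpGs, that in the following intron 22.1% and 27.7% over 11 CpGs, and one 4.59 kb downstream 7.73% and 0.588% over 26 CpGs. No CpG was called in the first pair, whose pooled differences had 95% Newcombe intervals of -0.497 to 5.12 and -2.65 to 11.5 points, and 2 were called lower in the last. The body of Pax9 averaged 33.7% and 29.2% over 23 CpGs, but +6.86 points higher in Dnmt1-/- over the 6 CpGs with at least 20 calls. This body held both directions. All 3 coding exon CpGs outside promoter islands fell, on average from 86.7% to 25.8%, with the largest fall at 57810827 from 93.3% of 15 calls to 16.1% of 31 calls (adjusted p = 4.09e-06, Fisher's exact test). In the intron 8.76 kb from the start, the island shown above was higher in Dnmt1-/-, 51.9% against 32.4% over 9 CpGs. Its pooled calls gave 44.4% (95% Wilson interval 37.8% to 51.2%) of 205 calls against 27.8% (23.1% to 33.0%) of 306. Only 2 of the 9 CpGs had at least 20 calls in both libraries. Within the island 2 CpGs were called higher. That at 57801381 went from 3.23% of 62 calls to 36.0% of 50 (adjusted p = 3.61e-05, Fisher's exact test) and that at 57801406 from 15.4% of 26 calls to 9 of 15 calls (adjusted p = 0.0140, Fisher's exact test). Just before the island 2 more CpGs were called higher, at 57801315 from 8.96% to 27.9% and at 57801317 from 9.09% to 32.8%. The Pax9 flank, with 5 CpGs, averaged 10.5% and 8.67%.

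Pax2 (ENSMUSG00000004231.7, chr19:44830539-44912758, plus strand), a regulator of kidney and optic stalk, Pax5 (ENSMUSG00000014030.9, chr4:44544017-44724318, minus strand), which commits lymphoid progenitors to the B cell lineage, and Pax8 (ENSMUSG00000026976.8, chr2:24276071-24331119, minus strand), needed for the thyroid, form the next subfamily. Pax2 and Pax5 had low promoters in both libraries. Pax2 averaged 4.98% in Dnmt1+/+ and 2.34% in Dnmt1-/- over 119 CpGs, and Pax5 averaged 6.50% and 3.22% over 8 CpGs. In contrast, the Pax2 body averaged 34.5% in Dnmt1+/+ and 3.48% in Dnmt1-/- over 126 CpGs, 60 of them called lower, and the Pax5 body averaged 30.8% and 4.19% over 222 CpGs, 85 of them called lower. The Pax5 body difference was -26.6 points, and -16.5 on pooled calls. The body means joined low islands with high sequence between them. Outside islands, Pax2 averaged 60.1% in Dnmt1+/+ and 3.39% in Dnmt1-/- over 59 CpGs, and Pax5 averaged 64.3% and 6.38% over 58 CpGs.

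In Pax2 the CpG at 44849601, in an intron, went from 34 of 34 methylated calls to 0 of 15 (adjusted p = 1.28e-11, Fisher's exact test). Its largest promoter island, 2294 bases long and across the start, averaged 3.85% and 1.30% over 83 CpGs. A group of islands about 80 kb downstream, at the 3′ end of the gene, was also low, the largest with 5.58% and 2.17% over 39 CpGs, and the last with 11% and 0.957% over 11 CpGs. The only Pax2 CpG called higher, at 44835141 in a noncoding exon part, went from 11.4% of 70 calls to 32.5% of 40 (adjusted p = 0.0265, Fisher's exact test).

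Pax5 islands ranged from low to highly methylated in Dnmt1+/+. The 77 CpGs of its largest, 7.47 kb from the start, averaged 6.47% in Dnmt1+/+ and 2.60% in Dnmt1-/-, and the 61 CpGs of an intronic island 47.1 kb from the start averaged 8.83% and 5.0%. Of the other islands inside the gene with at least 5 CpGs, 3 were highly methylated in Dnmt1+/+ and nearly or wholly unmethylated in Dnmt1-/-. The island printed above, 32.0 kb from the start, went from 91.1% to 1.57% over 6 CpGs, that at 16.8 kb from 78.4% to 0% over 6 CpGs, and that at 2.76 kb from 69.6% to 0% over 5 CpGs. All CpGs of these islands were called lower. In the flank an island at -2.93 kb from the start averaged 18.1% and 0.694% over 12 CpGs. Several Pax5 CpGs went from 100% to 0%, among them that in an intron at 44603138, from 20 of 20 calls to 0 of 19 (adjusted p = 2.36e-10, Fisher's exact test). The only Pax5 CpG called higher was that at 44716679, from 0 of 108 calls to 9.23% of 130 (adjusted p = 0.00202, Fisher's exact test).

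Pax8 was the exception of the subfamily and of the family. Its promoter averaged 44.6% in Dnmt1+/+ and 36.4% in Dnmt1-/- over 22 CpGs, the highest promoter level among the 8 in both libraries, at the 95.1 and 97.8 percentile of all genes. The direction of that difference turned to +0.135 points at a depth of at least 20 and to +7.01 points with strict islands. Its islands were opposite in level. The one 0.502 kb from the start averaged 77.6% and 51.2% over 10 CpGs, 5 of them called lower (-26.3 points, and -15.8 over the 5 CpGs with at least 20 calls), and the one 1.35 kb from the start averaged 17.2% and 24.0% over 12 CpGs, none called. The body averaged 71.8% and 31.3% over 12 CpGs, a difference of -40.5 points that shrank to -22.2 over the 5 CpGs with at least 20 calls and to -16.8 with the 5′ most start. The largest fall, at 24291302 in a coding exon, was from 21 of 21 calls to 16.7% of 18 (adjusted p = 2.81e-07, Fisher's exact test). No flank CpG outside the motifs was measured.

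**Figure D2:**
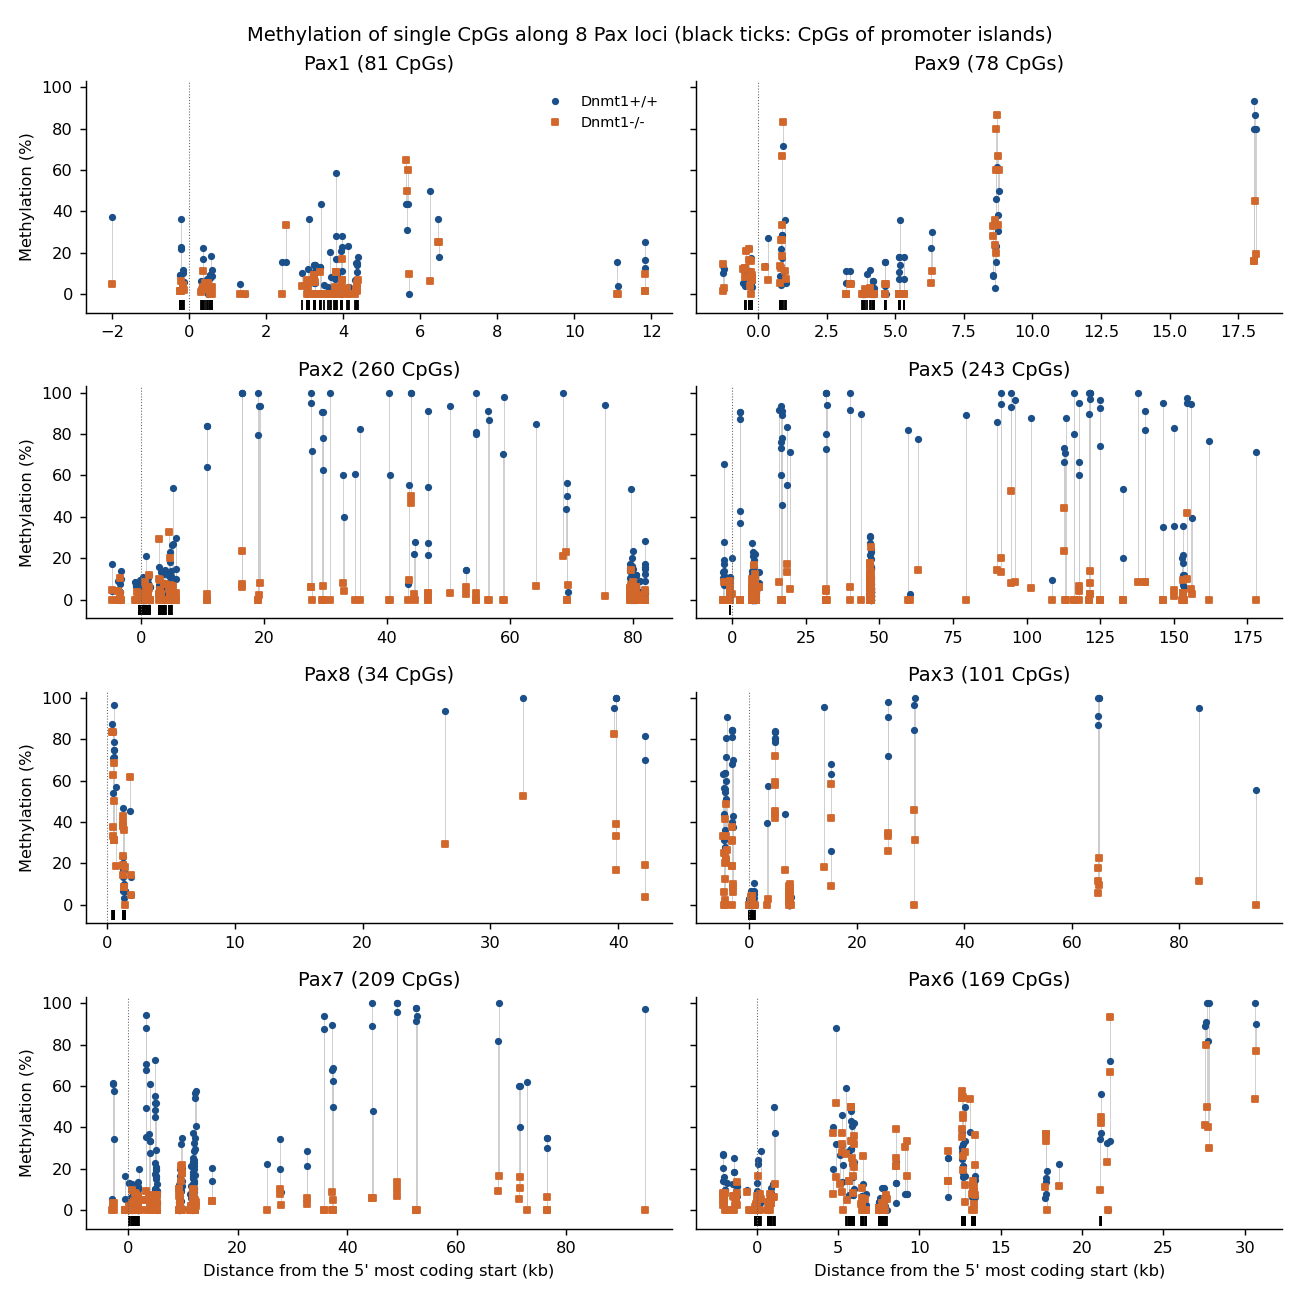
Methylation in percent (y axis) of each measured CpG outside CCGG and TCGA against its distance in kb from the 5′ most coding start (x axis, in the direction of transcription), for 8 Pax loci, with circles for Dnmt1+/+ and squares for Dnmt1-/- MEFs. Grey lines join the values of a CpG and black ticks mark promoter islands. Pax2, Pax5 and Pax7 show tall lines down to near 0% along much of their bodies, between groups of CpGs that were low in both libraries, and Pax6 and Pax9 show squares above circles in some introns.

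Pax3 (ENSMUSG00000004872.9, chr1:78097842-78193709, minus strand), which acts in neural crest and in muscle progenitors, and Pax7 (ENSMUSG00000028736.6, chr4:139292977-139389445, minus strand), a regulator of muscle satellite cells, both had low promoters. Pax3 averaged 2.28% and 0.923% over 27 CpGs, none called in either direction, and Pax7 averaged 5.47% and 1.87% over 46 CpGs, 4 of them called lower. Their bodies and flanks differed in what was left. The Pax3 body averaged 41.7% in Dnmt1+/+ and 16.7% in Dnmt1-/- over 50 CpGs, and the Pax7 body averaged 29.5% and 3.68% over 155 CpGs. The Pax3 flank averaged 60.1% and 20% over 24 CpGs, 16 of them called lower, and the Pax7 flank averaged 30.2% and 1.10% over 8 CpGs, 4 of them called lower. On pooled calls the Pax3 body difference was -15.3 points in place of -25.0, and the Pax7 flank difference -45.8 in place of -29.1. With motif CpGs the latter was -17.5.

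The 36 Pax3 body CpGs in islands away from the promoter averaged 30.3% in Dnmt1+/+ and 14.1% in Dnmt1-/-, with 10 called lower and 3 higher. The island 4.71 kb from the start averaged 81.6% and 53.4% over 6 CpGs, 3 of them called lower. In the flank, islands at -3.39 kb and -4.57 kb from the start averaged 65.8% and 18%, and 48.1% and 14.8%, over 9 CpGs each. The Pax3 island with most CpGs other than the promoter, 7.40 kb from the start, was close to 0% in Dnmt1+/+ and slightly higher in Dnmt1-/-, 1.09% and 5.09% over 23 CpGs. Its 3 called CpGs all rose, the largest at 78186183 from 0 of 68 calls to 5 of 50 calls (adjusted p = 0.0293, Fisher's exact test).

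Every Pax7 island outside the promoter with at least 5 CpGs was lower in Dnmt1-/-, and 4 of 5 by at least 10 points. The largest, 11.9 kb from the start, averaged 17.1% and 2.61% over 51 CpGs, 21 of them called lower. One at 5.15 kb averaged 21.3% and 2.01% over 28 CpGs, one at 3.97 kb 38.5% and 3.25% over 5 CpGs, and one at 3.28 kb 67.5% and 4.69% over 6 CpGs. No CpG of the locus was called higher. The largest fall was at 139336810, in a coding exon of Pax7, with 97.9% of 94 calls in Dnmt1+/+ and 0 of 146 in Dnmt1-/- (adjusted p = 9.27e-62, Fisher's exact test).

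Pax4 (ENSMUSG00000029706.8, chr6:28392334-28399353, minus strand), which acts in the beta cell lineage of the pancreas, had no promoter island and 6 measured CpGs, 2 of them outside the motifs. The CpG at 28396260, in a coding exon, was methylated in 5 of 17 calls in Dnmt1+/+ and 0 of 28 in Dnmt1-/- (adjusted p = 0.0135, Fisher's exact test). That at 28401066, in the flank, was methylated in 3 of 22 and 0 of 35 calls (adjusted p = 0.107, Fisher's exact test). No level of the gene can be drawn from so few sites.

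Pax6 (ENSMUSG00000027168.12, chr2:105509053-105543317, plus strand), which acts in eye, brain and pancreas, has 21 annotated coding starts and had 17 promoter islands. Most of these islands held no measured CpG outside the motifs. The Pax6 promoter averaged 13.6% in Dnmt1+/+ and 12.5% in Dnmt1-/- over 108 CpGs, with 3 called lower and 3 higher. That difference turned to +0.403 points when CpGs within 1 kb of a start were used instead of islands, and was -5.54 with the 5′ most start. The islands split into low ones, such as that across the 5′ most start with 9.22% and 3.67% over 31 CpGs or one 7.54 kb downstream with 3.13% and 1.45% over 21 CpGs, and intermediate ones. Of the intermediate islands, one 5.68 kb downstream averaged 26.8% and 27.4% over 16 CpGs. The one printed above, 12.6 kb downstream in an intron, averaged 27.7% and 36.6% over 13 CpGs. The CpG at 105521703 there rose from 16.0% of 50 calls to 54.5% of 44 (adjusted p = 0.000606, Fisher's exact test), and that at 105521657 from 30.6% to 57.6% (adjusted p = 0.00563, Fisher's exact test). In contrast, the CpGs at its 3′ edge were lower, for example 33.3% of 30 calls and 12% of 25 at 105521846, which was not called (adjusted p = 0.204, Fisher's exact test). In a noncoding exon part nearby, at 105522454, a CpG rose from 6.58% of 76 calls to 36.4% of 55 (adjusted p = 0.000121, Fisher's exact test).

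The Pax6 body averaged 36.6% and 32.0% over 38 CpGs, and the direction turned to +2.13 points at a depth of at least 20 and +0.746 with pooled calls. Its 16 intron CpGs averaged 13.6% in Dnmt1+/+ and 23.4% in Dnmt1-/-, and its 21 noncoding exon CpGs 51.7% and 38.1%. An intronic island 17.8 kb from the start (chr2:105526666-105527118) was higher in Dnmt1-/-, 23.7% against 12.4% over 5 CpGs, 2 of them called higher. The largest fall, at 105536823, was from 11 of 11 calls to 3 of 10 (adjusted p = 0.00324, Fisher's exact test). The Pax6 flank averaged 12.8% and 4.81% over 23 CpGs. Elp4 and the antisense gene Pax6os1 overlap the Pax6 locus, and other annotated genes overlap those of Pax1, Pax9 (Slc25a21 among them), Pax2, Pax5 and Pax8, so CpGs there can lie within both. Exon classes here and elsewhere were taken from every protein-coding gene in a locus, so an exon CpG can belong to a neighbour.

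Of the 134 CpG islands in the 9 loci, 48 had at least 5 CpGs outside the motifs. Among 23 promoter islands of this size, 3 were lower by at least 10 points, against 13.3% of all such islands, 0 were higher by as much, against 1.22%, and 20 stayed within 10 points. The 3 were the pair named in Pax1 and that in Pax8. Among 25 other islands, 13 were lower, against 75.8%, 2 were higher, against 1.78%, and 10 stayed within 10 points. Other islands of the Pax loci were much less methylated than those of other genes, with medians of 18.1% in Dnmt1+/+ and 4.69% in Dnmt1-/-, against 88.7% and 26.7% over 10285 islands. Only 8 of the 48 islands reached 50% in Dnmt1+/+, 1 of them at a promoter.

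**Figure D3:**
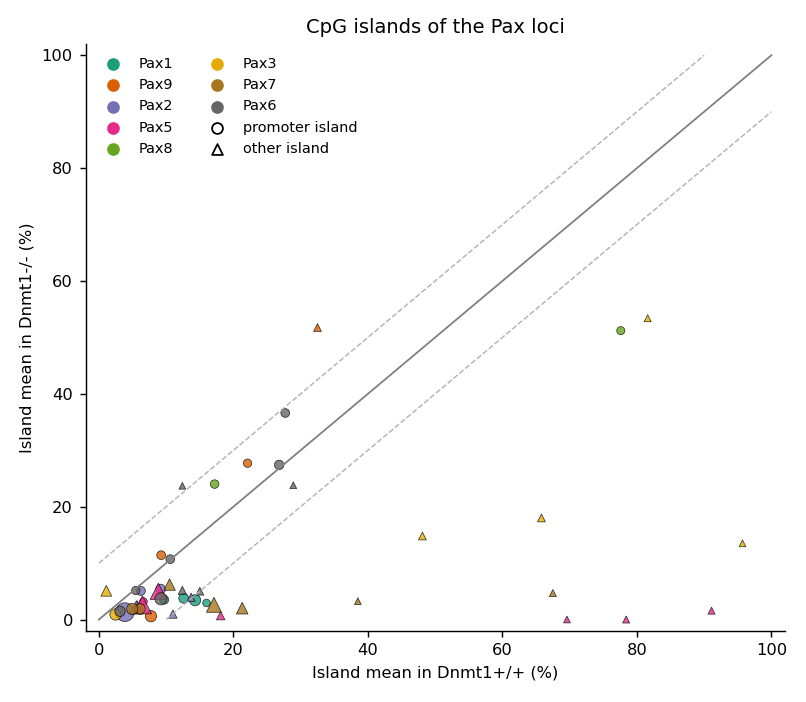
Mean methylation of each CpG island in percent in Dnmt1+/+ (x axis) and Dnmt1-/- (y axis) MEFs, for the 48 Pax islands with at least 5 CpGs. Colour marks the gene, circles are promoter islands, triangles other islands, marker area grows with the number of CpGs, the solid line is equality and dashed lines are 10 points either side. Most islands crowd below 20% in both libraries, and the Pax9 and Pax6 intronic islands above the upper dashed line are the only 2 that were higher by at least 10 points.

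The loci differed in how much methylation was left where it had been high. Of the 1177 CpGs, 136 were at 80% or more in Dnmt1+/+, a share of 11.6% against 37.9% of the whole table. These averaged 92.2% in Dnmt1+/+ and 17.2% in Dnmt1-/-, where the 377268 such CpGs of the table averaged 94.6% and 32.0%. In Dnmt1-/- the mean was 5.10% in Pax7 (17 CpGs), 6.09% in Pax5 (45 CpGs) and 7.32% in Pax2 (28 CpGs). It was 31.0% in Pax3 (23 CpGs), 49.6% in Pax8 (11 CpGs) and 53.0% in Pax6 (8 CpGs), and 24.2% at the 4 such CpGs of Pax9. Every one of the 17 Pax7 CpGs was at 20% or less in Dnmt1-/-, and none of the 8 Pax6 CpGs was, where 161693 of the 377268 such CpGs of the table were. No test was made between loci, because the CpGs of a locus share reads and come from the same 2 libraries. At a depth of at least 20 the values were 4.41% in Pax7, 7.99% in Pax5 and 4.34% in Pax2, so these 3 have no fixed order. At that depth Pax3 was at 35.8% over 14 CpGs. Pax8 and Pax6 had fewer than 5 such CpGs, so their values could not be checked this way. With the limit at 90% the values were 4.86%, 7.34% and 9.16% for Pax7, Pax5 and Pax2 and 22.8%, 46.0% and 58.2% for Pax3, Pax8 and Pax6. When motif CpGs were counted too, the means lay between 40.6% (Pax5) and 64.7% (Pax6), and the order changed, with 51.2% in Pax7 and 48.9% in Pax3. In Pax promoter islands motif CpGs averaged 54.3% in Dnmt1-/- against 7.34% at other CpGs. This setting thus mixes different levels and cannot settle the order.

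**Figure D4:**
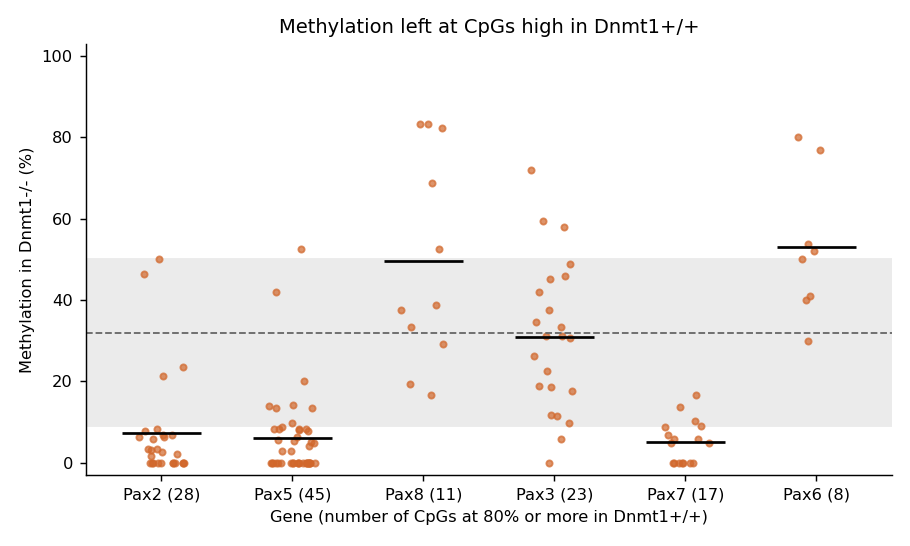
Methylation in Dnmt1-/- MEFs in percent (y axis) of single CpGs that were at 80% or more in Dnmt1+/+, for the 6 Pax genes with at least 5 of them (x axis, number of CpGs in brackets). Bars are means per gene, the dashed line is the mean of all such CpGs in the table (32.0%) and the grey band runs from their lower to their upper quartile (9.09% to 50%). Pax2, Pax5 and Pax7 sit mostly below the band and all Pax6 CpGs above 20%.

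The 794 Pax CpGs at 20% or less in Dnmt1+/+ averaged 6.85% and 3.95%, with 55 called lower and 13 higher, 6.93% and 1.64% of them. In the whole table such CpGs averaged 3.06% and 2.06%, with 2.83% called lower and 1.05% higher. The levels in Pax6, 7.46% and 7.47% over 114 CpGs, and in Pax9, 8.02% and 7.87% over 57 CpGs, hardly differed between libraries, while those of Pax7, 8.04% and 2.60% over 134 CpGs, did. In Pax8 such CpGs averaged 10.7% and 17.4% (11 CpGs, none called), and in Pax3 1.78% and 2.78% (51 CpGs, 3 called higher and 0 lower).

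In Dnmt1+/+ the level was lowest close to annotated starts and did not follow distance evenly beyond them. Within 500 bp of a start, 271 CpGs averaged 9.72% in Dnmt1+/+ and 6.33% in Dnmt1-/-. From 500 to 1000 bp, 163 CpGs averaged 13.2% and 11.4%, and from 1000 to 2000 bp, 99 CpGs averaged 18.7% and 8.43%. From 2000 to 5000 bp the 128 CpGs averaged 34.9% and 13.9%. Between 5000 and 20000 bp the 228 CpGs averaged 21.6% and 5.96%. Beyond 20000 bp 288 CpGs of 5 genes averaged 43.2% and 5.98%, and 149 of these were called lower and 0 higher. Outside promoter islands, coding exon CpGs of the family averaged 59.3% and 9.52% (55 CpGs), other exon CpGs 18.5% and 10.7% (104 CpGs), and intron CpGs 33.1% and 7.61% (484 CpGs). Coding exons of all gene bodies averaged 75.7% and 32.2%, and introns 76.4% and 27.4%.

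Of 15 genes known as Pax targets, 8 had a measured promoter, 1 of them lower by at least 10 points (background 11.9%) and 0 higher (background 0.843%). It was Myf5, a muscle regulator, with 98.6% and 77.3% over 5 CpGs. Of 8 measured target bodies, 5 were lower by at least 10 points, against 96.9% of all bodies, and 3 stayed within 10 points.

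The genes most like the Pax family were found by the distance over 6 means, those of 3 compartments in both libraries, from the median of the 6 Pax genes measured in all of them. Among 1611 genes with at least 5 CpGs in each compartment, the nearest were Lmx1b at 4.24 points, Hoxa7 at 6.22, Npdc1 at 6.23, Pprc1 at 7.64 and Osgep at 7.91. The Lmx1b body, for example, averaged 33.0% in Dnmt1+/+ and 6.96% in Dnmt1-/-, where the Pax medians were 34.1% and 10.4%.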

How the data were processed

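RRBS libraries were made from MEFs, 1 of each genotype, grouped by the genotype in their labels. A sequencing provider carried out read processing and mapping for the authors, and the submitters' processing notes name Bismark and mm9. The authors deposited, for CpGs with at least 10 calls in both libraries, a count of calls (the depth) and the percent of calls that were methylated. Methylated calls were recovered as percent times depth, which was whole to within 1.1e-11. Islands were called on NCBIM37 (at least 200 bp, GC of 50%, observed/expected CpG of 0.6), and genes came from GENCODE vM1. Fisher's exact test was two-sided, run on all 1790826 CpGs with python 3.11.15, numpy 2.4.6, scipy 1.17.1 and numba 0.67.0. In simulated data with the real depths it called 77.8% of 5000 changed CpGs and 0.0756% of 45000 unchanged ones. Every changed CpG had the same large fall from a high level, and neither shared reads nor spread between cultures were simulated. These shares therefore do not give the power for low CpGs or small differences, or the error between cultures. Genes and islands were counted with at least 5 CpGs, and levels from fewer are given with their number.

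All 9 Pax genes were named, with islands that differed by at least 10 points or had most CpGs in their locus, the CpG with the largest call in each direction per locus (for Pax3 the rise only), and listed target genes whose promoters differed by at least 10 points. Other islands, and other CpGs of the printed stretches or among those called higher, were chosen after their values were seen. Results for 1 list of genes and 1 Pax3 island are not reported here. The members and lists were chosen with earlier results of these data known. Alternatives covered motif CpGs, depth, pooling, island definition, starts, flank length and thresholds. At a depth of 10, a count of 0 allows up to 30% methylation (3 counts).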

Additional observations from a re-analysis of the deposited data

How the results depend on the processing

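The family difference (Dnmt1-/- minus Dnmt1+/+) kept its direction in all 3 compartments under every alternative tried, while its size moved. In promoter islands it was -2.66 points with motif CpGs or with strict islands, -2.99 at a depth of at least 20, -3.97 as a mean of gene means and -2.79 within 1 kb of starts. In bodies it was -22.6 with motif CpGs, -19.0 at a depth of at least 20, -18.1 on pooled calls, -20.1 as a mean of gene means, -23.8 with strict islands and -19.3 with the 5′ most start. In flanks it was -14.5 with motif CpGs, -15.7 at a depth of at least 20, -17.0 as a mean of gene means, -7.23 with a flank of 2 kb and -16.5 with 10 kb. CpGs called lower by Fisher's exact test numbered 207 at a depth of at least 20 and 122 when thinned to 10 calls. CpGs called higher numbered 23 with motif CpGs, 6 at an adjusted p under 0.01, 6 with a difference of at least 25 points, and 0 when thinned, where fewer calls leave less power. No promoter differed by 10 points with motif CpGs, a depth of at least 20, strict islands or 1 kb windows, but Pax8 did with the 5′ most start (-26.3) and Pax1 on pooled calls (-10.1). Differences of single genes that changed sign were Pax9 promoter +3.69, Pax8 promoter +0.135 and +7.01, Pax6 promoter +0.403, Pax9 body +6.86, and Pax6 body +2.13 and +0.746, under the settings given beside them above. The cause was not tested. The limits for CpGs at 80% or more were chosen after seeing the data. No paired analysis was possible because neither genotype was sequenced in a second library. The missing second library limits every comparison: culture, passage and library preparation cannot be told apart from genotype.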

Other observations

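Among upstream flanks of the target genes, 4 were measured, 1 was lower (background 74.4%) and 2 were higher (background 0.911%) by at least 10 points in Dnmt1-/-, and these genes were named after their values were seen. The flank of Msx1, a homeobox gene of limb and tooth, averaged 25.9% in Dnmt1+/+ and 46.1% in Dnmt1-/- over 62 CpGs outside the motifs. The flank of Wt1, a regulator of kidney and gonad, averaged 5.63% and 22.5% over 11 CpGs. The flank of Myod1, a muscle regulator, averaged 41.7% and 18% over 6 CpGs.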
